A study of Mus musculus with 12 samples.

Results

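The interleukin 1 (IL-1) family receptors described here are 10 genes that code for the receptors of this cytokine family, the decoys that bind the cytokines without signalling, the shared adaptor and inhibitors of the signal. They were chosen by gene symbol, and all 10 were present among the 14533 genes of the count table. The receptor genes were Il1r1, Il1rl2, Il1rl1 and Il18r1, the coreceptor was Il1rap, and the decoys were Il1r2 and Il18bp. Sigirr and Irak3 code for inhibitors and Myd88 for the adaptor.

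A ligand of this family binds its own receptor chain, and a coreceptor then joins the complex. Il1rap serves as coreceptor for the receptors of IL-1, IL-33 and IL-36, while the receptor of IL-18 uses Il18rap. The joined intracellular domains recruit the adaptor Myd88 and kinases of the Irak group, which leads to activation of NF-κB and MAP kinases. Keratinocytes store or make several of these ligands and respond to IL-1 and IL-36, and immune cells in skin respond to IL-18 and IL-33.

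RNA was sequenced from untreated, non-lesional dorsal skin of 12 C57BL/6 mice, 1 library per mouse. All mice, controls included, were homozygous for the floxed Pparg allele. The 6 Pparg-/-epi mice also carried Cre (Cre+/-) driven by the Cytokeratin14 promoter, which is active in basal keratinocytes, and the 6 WT mice were Cre-negative (Cre-/-) siblings. Ages in the labels ran from 8 to 13 weeks in both groups, with 3 female and 3 male WT mice and 4 female and 2 male Pparg-/-epi mice. The frozen epidermis was scraped down to the vascular bed of the superficial dermis, so the material can hold dermal, vascular and immune cells, and the deletion covers only cells in which the promoter has been active.

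The comparison asked which genes differ in the epidermis once Pparg is deleted there. Library totals spanned 10120840 to 16947632 counts (WT) and 11272135 to 18851255 counts (Pparg-/-epi). The counts of Pparg itself spanned 5 to 269 (WT) and 16 to 107 (Pparg-/-epi); counts summed over the whole gene do not check the deletion, which leaves a shortened transcript. Levels are given as CPM (counts relative to a common library size after TMM scaling, which corrects for library composition) and, where genes are compared with each other, as RPKM (the same per kilobase of gene length). The differences are log2 fold changes of Pparg-/-epi over WT from edgeR's quasi-likelihood test, with p-values adjusted by Benjamini-Hochberg over all 14533 genes. Altered genes are those whose log2 fold change was 0.6 or more in size with an adjusted p under 0.05. Nothing in the sources says more about how the mice relate to each other than that they are siblings, so the p-values measure the spread between these mice.

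WT replicate 2 stood apart from the other WT libraries. On the first axis of a multidimensional scaling plot of the 500 most different genes it lay at 1.19, among the Pparg-/-epi libraries (0.124 to 1.97), while the other WT libraries lay between -1.99 and -0.909. It had the highest summed level of the macrophage markers (487 CPM) and the sebaceous gland markers (866 CPM) of all libraries and the lowest of the keratinocyte markers (16992 CPM). Calls and values that this library decides are given with and without it. The keratinocyte markers Krt5, Krt14, Krt1, Krt10, Krt15 and Dsg1a summed to 16992 to 43605 CPM in WT and 26855 to 48647 CPM in Pparg-/-epi libraries, so the labelled tissue was present in every library.

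Of the 10 genes, 5 lie side by side on chromosome 1 of mm10, all on the plus strand. Il1r2 (40084768 to 40125226) comes first. Il1r1 (40225080 to 40316177) begins 99853 bases after it, and Il1rl2 (40324627 to 40365471) begins 8449 bases further on. Il1rl1 (40429570 to 40465414) follows after 64098 bases, and Il18r1 (40465552 to 40500854) begins only 137 bases past the end of Il1rl1. Il18rap (40515362 to 40551705) closes the row. The other genes are Il1rap on chromosome 16 (26581705 to 26725147, plus strand), Il18bp and Sigirr on chromosome 7 (102015077 to 102018155 and 141091175 to 141100546, minus strand), Myd88 on chromosome 9 (119335988 to 119340040, minus strand) and Irak3 on chromosome 10 (120141654 to 120201537, minus strand).

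Sequence before an annotated transcript start is shown for the 3 altered genes because these are the genes called as differing between the genotypes. PPARγ binds DNA with its partner RXR at repeats of the half-site AGGTCA, and STAT factors bind TTCNNNGAA, where N is any base. Both motifs were searched on both strands in RefSeq windows (GRCm38.p6, the mm10 assembly) that run from 250 bases before to 50 bases after each annotated transcript start. Of the 10 genes, 9 had such windows, 14 in all, and Sigirr was not among them. Each stretch below is part of such a window, read 5′ to 3′ on the gene's strand, with the matched motif in capitals. In Irak3 the capitals are the reverse complement of AGGTCA.
Il1r2, chr1:40085843-40085990, plus strand: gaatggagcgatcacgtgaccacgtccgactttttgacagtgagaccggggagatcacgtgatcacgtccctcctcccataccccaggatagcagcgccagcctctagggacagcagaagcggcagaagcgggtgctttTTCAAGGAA
Il18r1, chr1:40465787-40465969, plus strand: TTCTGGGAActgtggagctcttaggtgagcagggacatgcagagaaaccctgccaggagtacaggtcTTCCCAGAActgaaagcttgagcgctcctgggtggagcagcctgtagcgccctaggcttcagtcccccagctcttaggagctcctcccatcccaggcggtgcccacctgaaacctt
Irak3, chr10:120201660-120201847, minus strand: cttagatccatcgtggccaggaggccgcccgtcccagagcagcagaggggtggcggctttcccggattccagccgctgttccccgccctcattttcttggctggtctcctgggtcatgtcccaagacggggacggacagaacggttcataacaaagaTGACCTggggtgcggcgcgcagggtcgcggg

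The Il1r2 stretch holds TTCNNNGAA beginning 111 bases before a RefSeq start at 40086093. The Il18r1 stretch holds it at 219 and 152 bases before the start at 40466006, and the Irak3 stretch holds the AGGTCA half-site 93 bases before the start at 120201597. These starts lie inside or beside the gene model used for counting and need not be the start used in epidermis. The Il1r2 and Il18r1 stretches lie inside that model and hold 6 and 24 exon bases. Il18r1 and Irak3 also had other windows, which held no match and are not shown. Of the 14 windows, 3 held TTCNNNGAA (Il1r2, Il18r1 and Myd88) against 8.30% of all 32851 mouse windows, and 2 held AGGTCA (Irak3 and Il1rl1) against 16.3%. No match overlapped another. A match is a description of the sequence, and binding was not measured.

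Of the 10 genes, 3 were altered, namely Il1r2 and Il18r1 (lower) and Irak3 (higher), where 10.3% of all genes tested were altered. By direction, 2 were lower against a background of 5.08% and 1 was higher against 5.19%. The median log2 fold change over the 10 genes was 0.028, beside -0.011 over all genes, with 6 above and 4 below 0. Groups did not overlap in CPM for 2 of the 10 genes, Il1rap and Irak3, where 7.90% of all genes separated in this way. With Il1rap, 4 of the 10 had an adjusted p under 0.05 at any size, as did 15.4% of all genes. The decoy receptor of IL-1, the ligand-binding chain for IL-18 and an intracellular inhibitor therefore made up the altered genes. The ligand-binding signalling receptors of IL-1, IL-36 and IL-33 and the adaptor were not among them. Il1rap, the coreceptor these receptors share, was lower (-0.46, adjusted p = 0.00337) and missed the call by size only. For Il1rl1 the interval (-1.45 to 0.81) is too wide to call it unchanged.

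**Figure D1:**
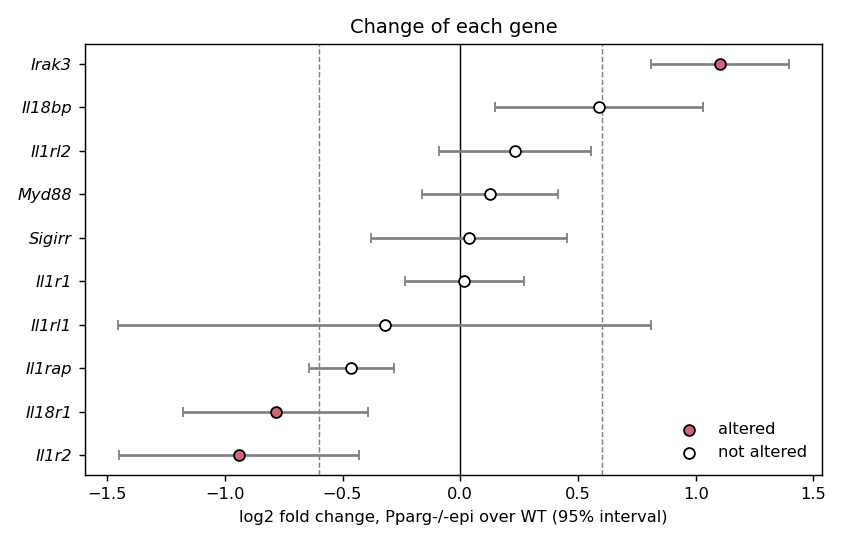
Log2 fold change of each gene, Pparg-/-epi over WT, with its 95% interval from the quasi-likelihood fit (6 mice per group); dashed lines mark 0.6 in either direction and filled points are altered genes. Irak3 lay highest at 1.10 and Il1r2 lowest at -0.94, and the interval of Il1rl1 was the widest.

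Il1r2, the decoy that captures IL-1 on the cell surface or in soluble form and carries no signalling domain, was the most abundant of the 10 genes per length. In WT libraries its level was 108 CPM at the lowest, 173 CPM at the median and 221 CPM at the highest. In Pparg-/-epi libraries the corresponding values were 53.9, 82.8 and 127 CPM. The Pparg-/-epi group was lower, and the ranges overlapped because WT replicate 1 (108 CPM) fell below Pparg-/-epi replicates 11 (121 CPM) and 12 (127 CPM). Il1r2 fell from 170 ± 39.6 to 88.7 ± 31.8 CPM (SD, n = 6 each), which is -0.94 as log2 fold change (standard error 0.24, edgeR quasi-likelihood adjusted p = 0.0180), or 1.92-fold lower. It was altered in each of the 12 fits that left out a library, between -1.07 and -0.85.

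The spread of Il1r2 inside each group followed a number in the mouse names. The labels name mice with a middle number, which was at most 217 for WT replicate 1 and Pparg-/-epi replicates 7 to 9 and 222 or higher for the remaining 8 mice; what this number stands for is not given. Among mice with the lower numbers, Il1r2 was 108 CPM in the single WT library and 53.9 to 64.6 CPM in the 3 Pparg-/-epi libraries. Among those with the higher numbers it was 151 to 221 CPM in 5 WT libraries and 101 to 127 CPM in 3 Pparg-/-epi libraries. The genotypes therefore did not overlap within either set of mice, and in both genotypes the mice with the higher numbers had more Il1r2. The sets do not hold the number constant. In the lower set WT had 217 and Pparg-/-epi 192 and 195. In the higher set WT had 222 and 226 and Pparg-/-epi 222 and 225. Only the number 222 occurred in both genotypes, with 151 CPM in WT replicate 2 and 101 CPM in Pparg-/-epi replicate 10. Number and genotype thus cannot be fully told apart. Of all genes, 6.01% were lower in Pparg-/-epi mice without overlap in both sets. With the set of mice as a term in the fit, the log2 fold change of Il1r2 was -0.70 (standard error 0.12, adjusted p = 0.00280). The split was described after the values of Il1r2 were seen, and the lower set holds a single WT library. The split and this fit are therefore a description, and the smaller adjusted p is no added evidence for the difference.

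**Figure D2:**
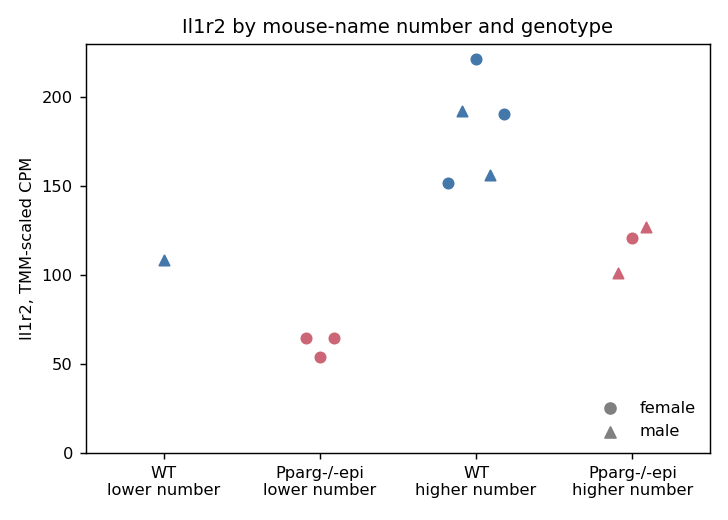
Il1r2 level (CPM, linear axis) in each of the 12 libraries, split by genotype and by lower (at most 217) or higher (at least 222) number in the mouse name; circles are females and triangles males. Pparg-/-epi libraries lay at 53.9 to 64.6 CPM against 108 CPM in the lower-numbered set and at 101 to 127 CPM against 151 to 221 CPM in the higher-numbered set.

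Among the Pparg-/-epi mice, RNA integrity and sex moved with these sets too. The 3 lower-numbered mice were females with RNA integrity numbers of 7.7 to 8.6, and the higher-numbered ones, 2 of them male, had 5.7 to 7.7. WT mice did not follow this pattern: the lower-numbered mouse was a male at 7.4, and the 5 higher-numbered ones, 3 of them female, were at 5.9 to 8.6. With the RNA integrity number as a covariate, Il1r2 stood at a log2 fold change of -0.81 (adjusted p = 0.0171). In female mice only, 3 WT and 4 Pparg-/-epi, it stood at -1.31 (adjusted p = 0.0460). Neutrophils are a known source of Il1r2 transcript in other tissues. Of 5 listed neutrophil markers 3 were altered higher and 1 lower, where 5.19% of all genes were altered higher and 5.08% lower. The 5 markers summed to a WT median of 38.8 CPM and a Pparg-/-epi median of 57.5 CPM. By this sum the Pparg-/-epi libraries (52.6 to 67.1 CPM) lay above every WT library. Cxcr2 (0.910 to 10.6 CPM), S100a8 (1.91 to 12.6 CPM) and S100a9 (2.66 to 17.3 CPM) were the markers that rose. Mmp9 fell (30.4 to 15.2 CPM, adjusted p = 0.00390). S100a8 and S100a9 are also among the genes, listed below, that signalling of this family can induce in keratinocytes. The sum therefore does not follow neutrophils alone. The part of neutrophils in the Il1r2 values was not tested. Ly6g and Retnlg, which define neutrophils, were not among the genes of the table.

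Il18bp, the soluble decoy of IL-18, was low. Its counts per library were 29 to 91 (WT) and 58 to 110 (Pparg-/-epi). In WT libraries it ranged from 2.53 CPM through a median of 3.76 CPM to 4.97 CPM, and in Pparg-/-epi libraries from 4.82 CPM through 5.66 CPM to 7.13 CPM. The ranges met only at WT replicates 2 and 6 and Pparg-/-epi replicate 10. The log2 fold change was 0.59 (standard error 0.20, 95% interval 0.15 to 1.03, adjusted p = 0.0707), so Il18bp was not called altered. Without WT replicate 2 it was 0.65 with an adjusted p of 0.0447 and passed the call, and in females only it was 0.24 (adjusted p = 0.489). Of the 10 genes, Il18bp had the lowest unadjusted p for a genotype effect that differed between the sexes (0.0279), with an adjusted p of 0.895 over all genes, and no member passed that test (5.10% of all genes had an unadjusted p under 0.05 and none passed after adjustment).

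**Figure D3:**
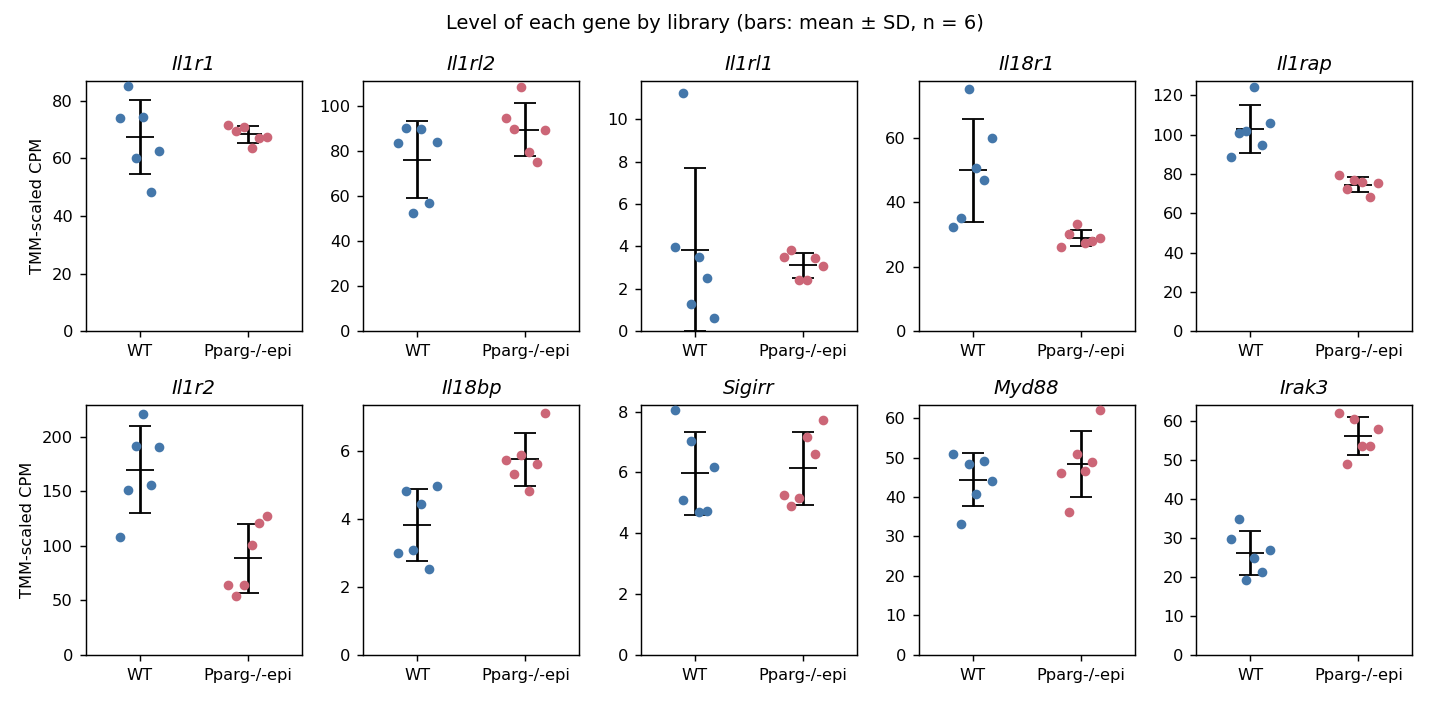
CPM of each of the 10 genes in every library (6 WT in blue, 6 Pparg-/-epi in red, each panel with its own linear axis from 0); bars give mean ± SD. The groups separate fully for Il1rap and Irak3, and Il1rl1 shows WT replicate 2 far above the rest at 11.3 CPM.

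Il18r1, the chain that binds IL-18, fell in Pparg-/-epi mice. WT libraries ran from 32.3 CPM through a median of 48.9 CPM to 75.2 CPM, and Pparg-/-epi libraries from 26.2 CPM through 28.5 CPM to 33.4 CPM. Pparg-/-epi libraries were closely grouped and WT libraries spread widely, with WT replicate 1 (32.3 CPM) inside the Pparg-/-epi range and WT replicate 2 (35.1 CPM) just above it. Per length the means were 10.5 ± 3.34 and 6.07 ± 0.525 RPKM (SD, n = 6 each), so the log2 fold change was -0.78 (standard error 0.18, adjusted p = 0.0122), or 1.72-fold lower. Il18r1 was altered in all 12 fits without 1 library (-0.89 to -0.63). In females only it was -0.73 with an adjusted p of 0.0767. Among the lower-numbered mice the genotypes overlapped (32.3 CPM in the WT library, 26.2 to 33.4 CPM in the Pparg-/-epi libraries), and among the higher-numbered mice they did not (35.1 to 75.2 CPM against 27.5 to 28.9 CPM). With the set of mice by name number as a term the log2 fold change was -0.71 (adjusted p = 0.0422).

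The partner chain Il18rap, which is needed for the IL-18 signal, moved the other way. The 6 WT libraries had 12 to 84 counts of it (1.28 to 4.46 CPM) and the 6 Pparg-/-epi libraries 64 to 121 (5.50 to 6.60 CPM), without overlap. Its log2 fold change was 1.33 (standard error 0.26, adjusted p = 0.00487); in females only it was 1.22 with an adjusted p of 0.0843. Per length, Il18r1 was 26.5 ± 18.6 times Il18rap in WT and 4.81 ± 0.440 times Il18rap in Pparg-/-epi libraries (SD, n = 6 each). That ratio spanned 8.05 to 60.2 (WT) and 4.26 to 5.37 (Pparg-/-epi), and was not tested. The ratio of Il18bp to Il18r1 was 0.282 ± 0.115 in WT and 0.678 ± 0.0994 in Pparg-/-epi libraries, again as a description. Il18, the ligand, rose from a mean of 105 CPM to a mean of 210 CPM (log2 fold change 1.01, standard error 0.20, adjusted p = 0.00563), and in females only it was 0.86 with an adjusted p of 0.116.

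**Figure D4:**
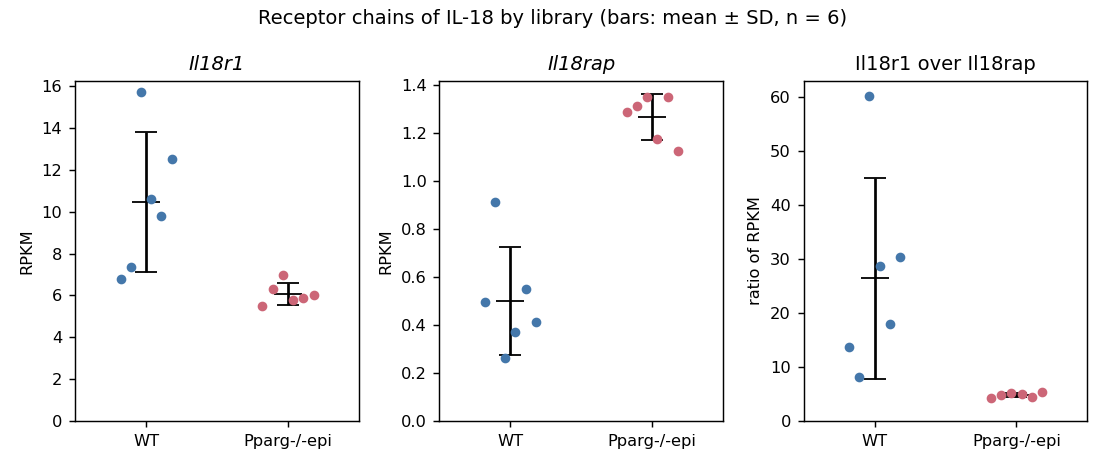
RPKM of Il18r1 and Il18rap and the ratio of Il18r1 to Il18rap in each library (linear axes from 0; bars are mean ± SD of 6 mice). Il18r1 was lower and Il18rap higher in Pparg-/-epi mice, and the ratio lay between 4.26 and 5.37 in all 6 of them against 8.05 to 60.2 in WT mice.

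T cells of the epidermis, mast cells and other immune cells can carry the IL-18 receptor, and in bulk tissue fewer cells of a type and less RNA per cell cannot be told apart. Of 7 listed epidermal T cell markers 2 were altered, both lower, namely Cd3e (log2 fold change -0.75, adjusted p = 0.0325) and Cd7 (-0.75, adjusted p = 0.0365). By log2 fold change 5 of the 7 lay below 0 and 2 above. Cd3g (-0.47, adjusted p = 0.238), Cd3d (-0.53, adjusted p = 0.244) and Fcer1g (-0.13, adjusted p = 0.626) were lower without passing the test. Thy1 (0.43, adjusted p = 0.281) and Il2rb (0.19, adjusted p = 0.537) were higher, also without passing. Summed over the 7, WT libraries spanned 182 to 297 CPM, against 222 to 279 CPM for Pparg-/-epi. Thy1 was the largest part of this sum, with its mean going from 117 to 157 CPM. The sum therefore cannot show whether T cell content was level. The T cell receptor constant genes Trdc and Trac were not listed. All 8 listed mast cell markers were altered and higher, with a sum of 20.5 to 97.4 CPM in WT and 140 to 255 CPM in Pparg-/-epi libraries. Of all genes, 5.19% were altered higher and 5.08% altered lower. Fcer1a, with 0 to 1 counts per WT library and 17 to 44 per Pparg-/-epi library, was listed only through the Pparg-/-epi group. Its direction was therefore set by the count filter. The part of these cells in the Il18r1 and Il18rap values was not tested.

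Il1rap, the coreceptor shared by the IL-1, IL-33 and IL-36 receptors, was lower in Pparg-/-epi mice by less than the size set for a call. It was 88.8 CPM at the lowest, 101 CPM at the median and 124 CPM at the highest in WT, against 68.4, 75.5 and 79.3 CPM in Pparg-/-epi libraries. Every WT library was above every Pparg-/-epi library, a separation in the lower direction that 3.95% of all genes showed. Il1rap fell from 103 ± 12.2 to 74.6 ± 3.83 CPM (SD, n = 6 each), so the log2 fold change was -0.46 (standard error 0.084, 95% interval -0.64 to -0.28, adjusted p = 0.00337). The adjusted p stayed at or under 0.0297 in all 22 other fits. Of all genes, 7.84% were lower with an adjusted p under 0.05 at any size. The gene gives both a membrane form and soluble forms of the protein, and counts per gene do not separate them.

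Il1r1, the signalling receptor for IL-1α and IL-1β, showed no detectable difference. It was 48.4 CPM at the lowest, 68.3 CPM at the median and 85.0 CPM at the highest in WT libraries, and 63.6, 68.4 and 71.7 CPM in Pparg-/-epi libraries. The Pparg-/-epi values lay inside the WT range. The log2 fold change was 0.018 (standard error 0.12, 95% interval -0.23 to 0.27, adjusted p = 0.943). With Il1r2 lower and Il1r1 level, Il1r2 was 9.79 ± 2.92 times Il1r1 per length in WT libraries (5.48 to 12.1) and 4.92 ± 1.89 times in Pparg-/-epi libraries (2.90 to 7.09), and this ratio was not tested.

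Il1rl2, the receptor of the IL-36 cytokines, was second to Il1r2 among the 10 genes per length. Its counts per library were 493 to 1705 (WT) and 833 to 1825 (Pparg-/-epi). WT libraries ran from 52.5 CPM through a median of 83.8 CPM to 90.5 CPM, and Pparg-/-epi libraries from 75.3 CPM through 89.7 CPM to 108 CPM. WT replicates 3 and 5 were low, at 52.5 and 56.8 CPM, and the other 4 WT libraries lay inside the Pparg-/-epi range. The log2 fold change was 0.23 (standard error 0.15, 95% interval -0.090 to 0.55, adjusted p = 0.331).

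Il1rl1, the receptor of IL-33, had the lowest level of the 10 genes per length. Counts per library were 10 to 212 (WT) and 29 to 67 (Pparg-/-epi). The WT values were 3.96, 11.3, 1.28, 3.50, 2.53 and 0.629 CPM in replicates 1 to 6, and the Pparg-/-epi libraries lay between 2.41 and 3.82 CPM. The difference of -0.32 on the log2 scale (standard error 0.52, 95% interval -1.45 to 0.81, adjusted p = 0.739) rested on WT replicate 2, and without that library it was 0.37 (adjusted p = 0.527). Mast cells are known to carry this receptor, and while the mast cell markers were higher in Pparg-/-epi mice, WT replicate 2 had the highest mast cell sum of the WT libraries (97.4 CPM). The gene gives a membrane and a soluble decoy transcript, which counts per gene do not separate.

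Irak3, also known as IRAK-M, a kinase-like protein that restrains signalling below Myd88, rose in Pparg-/-epi mice. WT libraries were at 19.3 CPM at the lowest, 25.9 CPM at the median and 34.9 CPM at the highest, and Pparg-/-epi libraries at 49.1, 55.8 and 62.1 CPM. All 6 Pparg-/-epi libraries were above all WT libraries, as for 3.95% of all genes in this direction. The mean went from 26.1 ± 5.70 to 56.2 ± 4.94 CPM (SD, n = 6 each), or 1.10 as log2 fold change (standard error 0.14, adjusted p = 3.56e-04) and 2.15-fold higher. Irak3 was altered in all 22 other fits, from 0.96 in females only to 1.19 without 1 library. Monocytes and macrophages are known for Irak3, and none of 7 listed macrophage markers was altered. Their sum had a median of 128 CPM in WT (83.3 to 487 CPM) and 218 CPM in Pparg-/-epi libraries (160 to 276 CPM). The 487 CPM was that of WT replicate 2. WT replicate 2, with the highest macrophage sum, also had the highest Irak3 of the WT libraries. The part of these cells in the Irak3 values was not tested.

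Sigirr, a receptor-like inhibitor of the family, had 60 to 126 counts per library (WT) and 73 to 101 (Pparg-/-epi). Its level was 4.71 to 8.05 CPM in WT and 4.91 to 7.73 CPM in Pparg-/-epi libraries. The ranges coincided almost fully, and the log2 fold change was 0.038 (standard error 0.19, 95% interval -0.38 to 0.45, adjusted p = 0.924). Myd88, the adaptor, ran from 33.1 to 50.9 CPM in WT and from 36.3 to 61.9 CPM in Pparg-/-epi libraries. Its log2 fold change was 0.13 (standard error 0.13, 95% interval -0.16 to 0.41, adjusted p = 0.581). An exon of Acaa1a on the opposite strand covers 11.7% of the bases of Myd88; the strand setting of the counting is not given, so reads of both genes there cannot be told apart. Such overlap was 4.16% for Il1rap and 0.943% for Irak3, and no gene shared a 75-base stretch with the transcripts of another gene.

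Ordered per length, Il1r2 led in both genotypes with 126 ± 29.5 RPKM in WT and 66.0 ± 23.7 RPKM in Pparg-/-epi libraries (SD, n = 6 each). Il1rl2 followed with 39.1 ± 8.72 and 45.9 ± 6.01 RPKM, so that the ranges of these 2 genes were apart in WT but overlapped in Pparg-/-epi libraries. Myd88 came next with 23.3 ± 3.50 and 25.4 ± 4.36 RPKM. In WT libraries Il1r1 (13.4 ± 2.57 RPKM), Il1rap (12.1 ± 1.44 RPKM), Il18r1 (10.5 ± 3.34 RPKM) and Irak3 (8.80 ± 1.92 RPKM) formed a run in which each gene overlapped the next. In Pparg-/-epi libraries that run came apart. Irak3 stood at 18.9 ± 1.67 RPKM and overlapped Myd88, and below it Il1r1 (13.6 ± 0.586 RPKM), Il1rap (8.79 ± 0.451 RPKM) and Il18r1 (6.07 ± 0.525 RPKM) no longer overlapped. Sigirr and Il18bp overlapped each other in both groups with means of 2.72 to 4.10 RPKM, and Il1rl1 was last at 0.544 ± 0.541 and 0.438 ± 0.0824 RPKM.

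**Figure D5:**
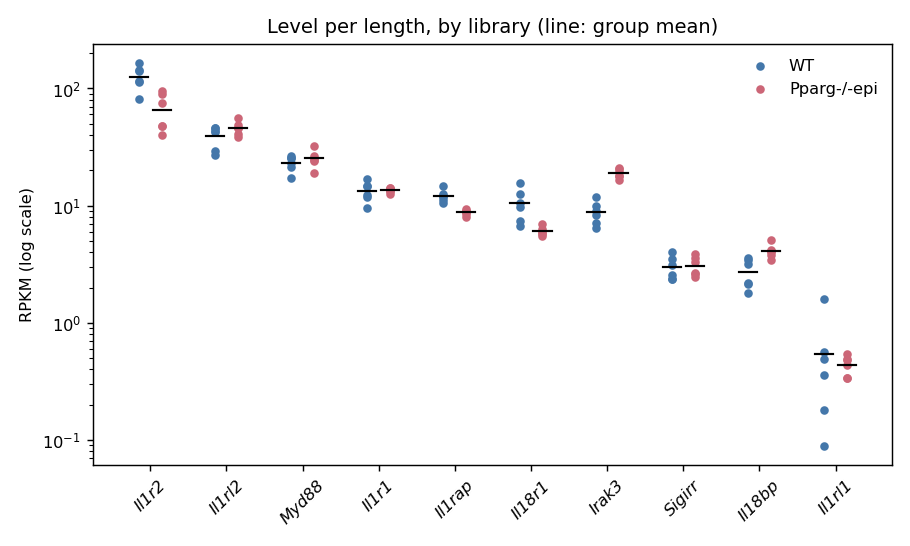
RPKM of the 10 genes in each library on a log scale, ordered by the WT mean (blue WT, red Pparg-/-epi; the line is the mean of 6 mice). Irak3 moved from the seventh place in WT (8.80 RPKM) to the fourth in Pparg-/-epi mice (18.9 RPKM), while Il1r2 stayed first.

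Among the 10 ligand genes of the family, all listed, 6 were altered, 5 higher and 1 lower, with a median log2 fold change of 0.79. Of all genes, 10.3% were altered, 5.19% higher and 5.08% lower. The IL-36 genes that bind the Il1rl2 product rose. Il1f6 (IL-36α) had 8 to 133 counts per WT library and 410 to 844 per Pparg-/-epi library (log2 fold change 3.90, standard error 0.54, adjusted p = 7.97e-04). Without WT replicate 1, Il1f6 was at 4.68, and in females only at 5.25 (adjusted p = 0.00334). Il1f8 (IL-36β) went from 24.1 ± 6.30 to 104 ± 19.5 CPM (2.11, adjusted p = 3.32e-05), and Il1f9 (IL-36γ) from 81.7 ± 24.4 to 151 ± 24.8 CPM (0.88, adjusted p = 0.0102). The antagonist of the same receptor, Il1f5, rose as well (log2 fold change 0.70, adjusted p = 0.00631). In females only, Il1f9 (1.03, adjusted p = 0.0618) and Il1f5 (0.76, adjusted p = 0.0761) lost their calls. Their receptor Il1rl2 stood at 0.23 and did not pass the test.

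Il33, the ligand of Il1rl1, fell from 71.3 ± 31.2 to 39.3 ± 5.87 CPM (log2 fold change -0.86, standard error 0.25, adjusted p = 0.0331). That call was lost in 11 of the 22 other fits, 8 of them fits without a single library (WT replicates 1, 4 and 6 and Pparg-/-epi replicates 8 to 12), with an adjusted p of at most 0.0721 in those 8. The largest loss was in females only (-0.58, adjusted p = 0.272), and the other fits were those with sex (adjusted p = 0.0509) or RNA integrity number (adjusted p = 0.0566) as a covariate. The IL-1 genes Il1a (0.48, adjusted p = 0.130) and Il1b (1.55, adjusted p = 0.0622) did not pass, nor did the receptor antagonist Il1rn (0.20, adjusted p = 0.478) or Il1f10 (-0.67, adjusted p = 0.282). For Il1b the call depends on the test, because the paper reported it as significantly higher with its likelihood ratio test. Il1b was low, with 6 to 88 counts per WT library and 35 to 103 per Pparg-/-epi library.

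Of 21 genes of the signalling chain, all listed, Il18rap alone was altered, 1 of 21 beside the 10.3% of all genes, and the median log2 fold change of the list was -0.044. The kinases Irak1 (-0.067, adjusted p = 0.700), Irak2 (-0.12, adjusted p = 0.668) and Irak4 (0.28, adjusted p = 0.100) did not pass the test. Traf6, the ubiquitin ligase below them, was at 0.031 (adjusted p = 0.904).

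Of 13 genes that signalling of this family can induce in keratinocytes, 7 were listed, and Cxcl1, Cxcl2, Cxcl5, Il6, Csf2 and Csf3 were not. Of the 7, 5 were altered, all higher, where 5.19% of all genes were altered higher. The list was chosen with earlier results of these data known, so this count is a description and no test. Nfkbiz, an IκB family regulator induced by IL-1 and IL-36, stood at 0.62 (standard error 0.15, adjusted p = 0.0143), close to the size limit. The antimicrobial genes rose from low levels, S100a8 from 1.91 ± 1.34 to 12.6 ± 3.78 CPM (2.74, adjusted p = 0.00165), S100a9 from 2.66 ± 2.67 to 17.3 ± 3.74 CPM (2.74, adjusted p = 0.00403) and Lcn2 from 1.06 ± 0.960 to 7.55 ± 4.65 CPM (log2 fold change 2.81, adjusted p = 0.0106). Ccl20 was at 1.80 (adjusted p = 0.0384), a call lost in 10 of 12 fits without 1 library (adjusted p up to 0.0845), all but those without WT replicate 2 (2.47, adjusted p = 0.00203) or Pparg-/-epi replicate 10. Nfkbiz lost its call without WT replicate 1 (0.58), WT replicate 5 (0.58) or Pparg-/-epi replicate 12 (0.48). In females only, Nfkbiz (0.31, adjusted p = 0.190), Ccl20 (1.24, adjusted p = 0.277) and Lcn2 (3.06, adjusted p = 0.0983) lost their calls. Lcn2 was at 3.40 without WT replicate 2 and at 2.09 with the mouse-name number in the fit, and S100a9 was at 3.41 without WT replicate 3 and at 3.85 in females only, where S100a8 was at 3.33. Nfkbia (-0.049) and Tnfaip3 (0.60, adjusted p = 0.120) did not pass. S100a8 and S100a9 are also neutrophil transcripts.

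Within the groups, after the group mean was subtracted from log2 CPM, the 10 genes did not move as a block over the 12 libraries. Irak3 went with Il1rl2 (Pearson r = 0.81, Spearman rho = 0.79) and Il1r1 (r = 0.76, rho = 0.76), and Il1rl2 with Il1r1 (r = 0.77, rho = 0.79). Il18r1 went against Il1rl1 (r = -0.76, rho = -0.64) and Irak3 (r = -0.70, rho = -0.51). The genes of the whole table most like Il1r2 were Msantd2 (r = 0.97, rho = 0.99), Abhd17b (r = 0.96, rho = 0.96) and Tmem177 (r = 0.94, rho = 0.88). Those most like Il18r1 were Wdr60 (r = 0.93, rho = 0.92), 2010107G12Rik (r = 0.93, rho = 0.86) and Wls (r = 0.92, rho = 0.85). For Irak3 they were Myo9b (r = 0.97, rho = 0.98), B4galnt3 (r = 0.94, rho = 0.92) and Khnyn (r = 0.92, rho = 0.98). These values are descriptions over 12 libraries, the likeness was searched over all genes, and the libraries share RNA integrity, depth and cell makeup as sources of common spread.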

How the data were processed

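The authors deposited counts, the whole numbers of read pairs per gene, without normalization, for 12 mRNA libraries (KAPA mRNA HyperPrep, paired-end reads). Their processing notes and methods name STAR 2.5.2b, mm10 and featureCounts of Subread 1.5.1. The table lists 14533 genes, each above 0.5 CPM in at least 6 libraries, after 2800 blank rows were dropped. No per-sample column was left unused. Total counts per library set the precision and are given with the results.

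Counts were scaled by TMM and compared with the quasi-likelihood test of edgeR 4.0.16 (R 4.3.3), genotype being the only term and Benjamini-Hochberg adjustment covering all genes. RPKM was computed from TMM-scaled library sizes and the gene length in the table. Intervals are 95% from the standard error and the fit's degrees of freedom. Within-group likeness used log2 CPM with a prior count of 2. The fit was tested on simulated counts. Alternatives were edgeR's likelihood ratio test (the study's own), DESeq2 1.42.0, other scalings and a filter at a mean of 1 CPM. Further ones were covariates, females only and each library left out. The covariates were sex, RNA integrity number, age and the set of mice with lower or higher mouse-name numbers. Figures were drawn with matplotlib 3.10.9.

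The 10 genes, the gene lists and the tests were chosen with earlier results of these data known. The genes named are the 10 members, pathway and marker genes whose values a sentence uses, altered ones first, and for each altered member the 3 genes most like it. The split of Il1r2 by mouse-name number within genotypes was described after its values were seen. Upstream sequences are from RefSeq, and shared stretches and overlapping exons were computed with GENCODE M21.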

Additional observations from a re-analysis of the deposited data

Results flagged for a closer look

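Il1rl1 in WT replicate 2 was 11.3 CPM, with the other 5 WT libraries at 0.629 to 3.96 CPM. The gap to the next library was 0.686 of the group's whole range, above Dixon's 95% critical value for a group of this size. It was the single such value in 20 groups tested (10 genes in 2 genotypes), where chance gives about 1 in 20. The same library lay among the Pparg-/-epi libraries in the scaling plot and had the highest macrophage and sebaceous gland marker sums of all libraries; the part of these in the Il1rl1 value was not tested.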

How the results depend on the processing

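No paired analysis was run, because the sources do not pair single WT and Pparg-/-epi mice. The replicate numbers (WT 1 to 6, Pparg-/-epi 7 to 12) carry no pairing. WT replicates 3 to 6 shared the name number 226, Pparg-/-epi replicates 8 and 9 shared 195, and 11 and 12 shared 225. Whether mice with a shared number are independent is not given. Over all genes 1493 were altered, 651 with females only, 1116 to 2249 with 1 library left out (2249 without WT replicate 2), and between 1202 and 1787 in the other fits. Of the 38 pathway genes 12 were altered, 4 with females only and 9 to 13 with 1 library left out (13 without WT replicate 2). Of the 10 members 3 were altered, 2 with females only (Il18r1 lost its call), and 3 to 4 with 1 library left out (Il18bp gained it without WT replicate 2). Il1r2 and Irak3 were altered in all 22 alternatives. Genes near 0 changed sign. Il1r1 was -0.0080 with sex, -0.053 with RNA integrity number and -0.023 with mouse-name number in the fit, -0.088 in females, and -0.061 to 0.081 with 1 library left out. Sigirr was -0.039 to 0.13 and Il1rl1 -0.54 to 0.37 with 1 library left out (Il1rl1 above 0 only without WT replicate 2). Il1rl2, Il1rap and Myd88 kept their direction and their side of the threshold in all 22 alternatives. The causes were not tested. Levels per length moved by less than 1 SD in all 140 alternatives. Low counts limit the precision for Il1rl1, Il18bp, Sigirr and Il18rap, whose lowest libraries had 10, 29, 60 and 12 counts, and for Lcn2, Il1b, Il1f6, S100a8 and S100a9, whose lowest had 2 to 10.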
